A study of Arabidopsis thaliana with 28 samples.

Results

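Open chromatin of vehicle-treated Arabidopsis thaliana roots was compared with that of vehicle-treated shoots, both of the wild-type strain Col-0. The comparison used the 4 root control and 2 shoot control libraries among the 28 samples of the series, chosen by their labelled tissue, genotype and treatment. All 6 came from tissue kept in liquid MS for 45 min with the vehicle of the hormone alone, the control arm of a cytokinin experiment. They are described as biological replicates by the series text. Ages of the plants are not given in the sources used here. The assay was ATAC-seq, in which the transposase Tn5 inserts adapters into DNA that is not wrapped in nucleosomes. The nuclei had been collected on sucrose cushions and sorted after DAPI staining, a DNA stain, so every cell type of a tissue could contribute. A region with fewer cells of the type that opens it and a region less open in each cell cannot be told apart in such bulk nuclei.

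Roots and shoots share one genome but use it differently. Leaf cells build chloroplasts, a wax-covered epidermis and stomata. Root cells form hairs, a Casparian strip in the endodermis, and transporters that take up nitrate, ammonium, phosphate, iron and boron. Open chromatin marks promoters, enhancers and strongly transcribed genes, and many of these stretches are open in a subset of tissues.

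The data were 1 list of peak positions per library, without heights or read numbers, so sequencing depth is unknown and a peak is either present or absent. Peaks that overlapped were merged, which gave 36567 regions, and the 30506 with a peak in at least 2 of the 6 libraries were kept. Covered percent is the share of a region or window that lies under a peak in a library. A gene was read over its body with 1 kb on both sides. This window had a median length of 4078 bp, and 80.5% of the windows held part of another protein-coding gene, so 1 peak can count for several neighbours. Of 27444 protein-coding genes, 24317 had a peak in the window in at least 2 libraries and were tested.

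Root peaks were wider and covered more of the genome. The 4 root libraries held 36358, 32953, 32380 and 32675 peaks and the 2 shoot libraries 31843 and 30778. Peaks covered 28.7, 28.0, 26.5 and 25.7 Mb in roots and 23.1 and 19.7 Mb in shoots. The median peak was 523.5 to 537.5 bp wide in roots and 470 and 427 bp in shoots, so that both measures had roots and shoots without overlap. For covered length (27.2 ± 1.4 Mb, SD, n = 4, against 21.4 ± 2.3, n = 2) and for median width (531 ± 6 bp against 449 ± 30) the two-sided exact permutation p was 0.0667, the smallest that 4 against 2 libraries can give (adjusted p = 0.2 over 6 library values). The number of peaks gave an exact permutation p of 0.267. Root control 1 stood apart among the root libraries in position. It had 47.1% of its peaks centred in a gene body, against 38.9% to 39.4% in the other root libraries. The share was 44.1% in shoot control 1 and 37.8% in shoot control 2. The mean shares in gene bodies were close, at 41.1% in roots and 41.0% in shoots.

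Peak sets were more alike within a tissue than between tissues. The Jaccard index, the length under peaks in both libraries divided by the length under peaks in either, was 0.750 to 0.824 for the 6 pairs of root libraries and 0.758 for the shoot pair. It was 0.548 to 0.610 for the 8 pairs of a root and a shoot library. Unequal covered length lowers the highest index that a pair can reach, and its part was not tested. The mean within tissues exceeded the mean between tissues by 0.190 (one-sided exact permutation p = 0.0667, the smallest possible), and by 0.181 to 0.206 without any 1 library.

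Most open regions were shared. A peak was present in all 6 libraries in 18869 regions (61.9%). A peak in all 4 root and no shoot library was found in 2981 regions, 9.77% of those kept, and a peak in both shoot and no root library in 1332, or 4.37%. These are called root-only and shoot-only regions below. Fisher's exact test for a single region cannot go below 0.0667 with these numbers, and 0 regions passed the adjustment or had an unadjusted p under 0.05. The number of root-only regions was 4694 when root libraries 1 and 2 alone were set against the shoots, so it depends on how many libraries must hold the peak.

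**Figure D1:**
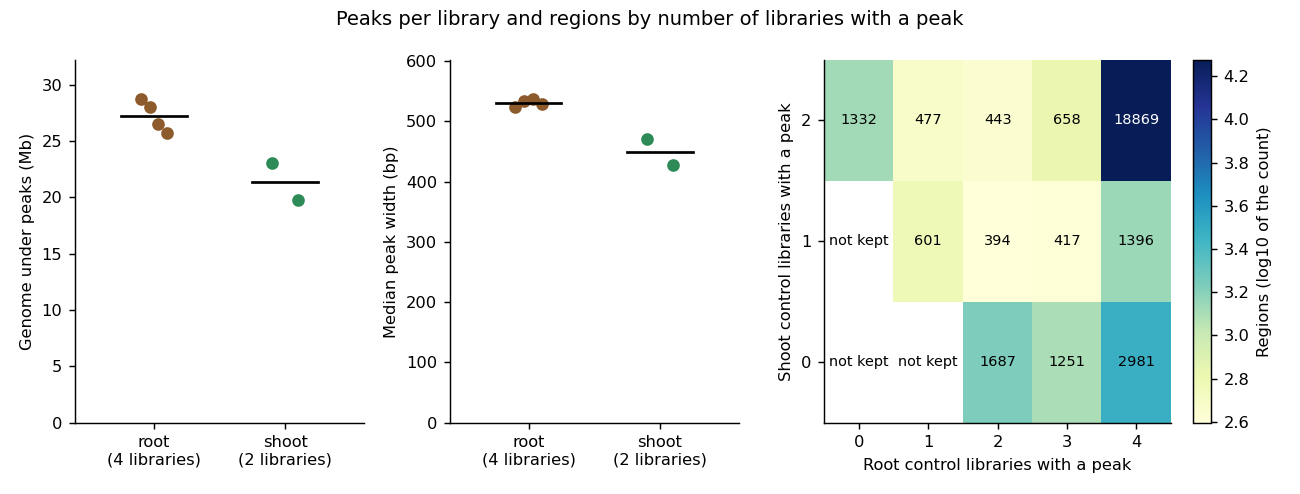
Length of the genome under peaks (Mb, left) and median peak width (bp, middle) per library, with points for libraries and bars for group means, and the number of kept regions by how many root and shoot control libraries had a peak (right, colour on a log10 scale). All 4 root libraries lie above both shoot libraries in the first and second panels, and 18869 regions lie in the corner of peaks in all 6 libraries.

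Regions open in a single tissue were narrower than shared ones and more often centred over 1 kb from genes. The median width was 616 bp for root-only regions, 396 bp for shoot-only regions and 1059 bp for regions with a peak in all 6 libraries. A region joins the overlapping peaks of 6 libraries in the shared class, 4 in the root-only and 2 in the shoot-only class. The order of widths can thus follow in part from how the classes were built. That part was not tested, and the midpoints used below share this limit. The midpoint was over 1 kb away from every protein-coding gene in 23.6% of root-only and 28.3% of shoot-only regions, against 12.5% of those open in all 6 and 16.2% of all kept regions. Midpoints in gene bodies made up 31.5% and 35.7%, against 41.8% of the regions open in all 6. Regions are not replicates, so these shares are descriptions. Within the 18869 shared regions, peaks were also longer in roots. The median covered length of a shared region was 868, 824, 820 and 799 bp in the root libraries and 721 and 596 bp in the shoot libraries. Every root library covered more than both shoot libraries in 39.8% of them, and every shoot library covered more in 8.47%. Over all kept regions, root and shoot libraries did not overlap in 37.3% and 12.0%.

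**Figure D2:**
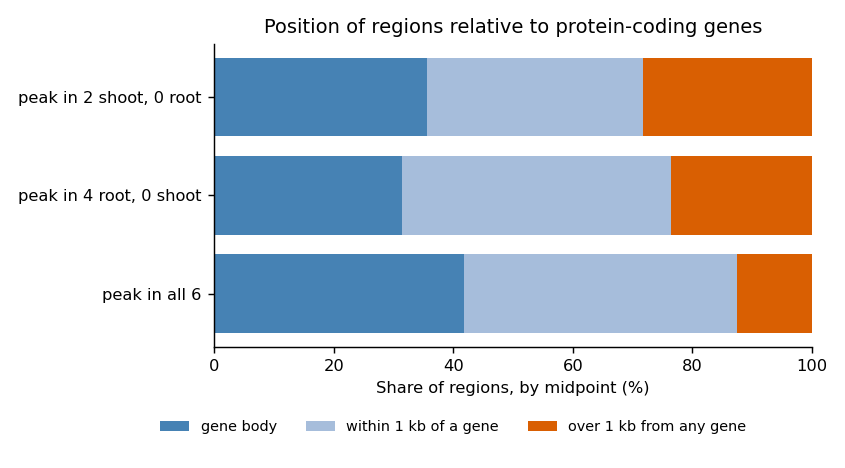
Share of regions (%) centred in a gene body, up to 1 kb from one or farther away, for regions with a peak in all 6 libraries, in 4 root and no shoot, and in 2 shoot and no root libraries. The share farther than 1 kb from any gene is 12.5%, 23.6% and 28.3%.

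The root-only and shoot-only regions were then read in the 10 ATAC libraries that had no part in choosing them. These were WT roots and shoots given 5 µM of the cytokinin benzyladenine (BA) for 45 min (4 and 2 libraries) and 4 libraries of arr1,10,12 roots, a mutant in 3 transcription factors of cytokinin response. Of the root-only regions, 83.4% to 96.5% had a peak in each WT root library with BA and 84.4% to 90.6% in each arr1,10,12 root library, but 11.2% and 10.8% in the shoot libraries with BA. Of the shoot-only regions, 85.5% and 91.0% had a peak in the shoot libraries with BA, 1.201% to 4.50% in WT roots with BA and 0.826% to 3.30% in arr1,10,12 roots. Tissue was thus separated again in full among the BA libraries in 1826 root-only regions (61.3%) and 993 shoot-only regions (74.5%). It was separated in the opposite direction in 0 of them. The share of all kept regions separated in this way is not given here. Of the regions with a peak in all 6 control libraries, 97.6% to 99.8% had one in each WT root library with BA. In the shoot libraries with BA the shares were 98.3% and 99.0%.

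**Figure D3:**
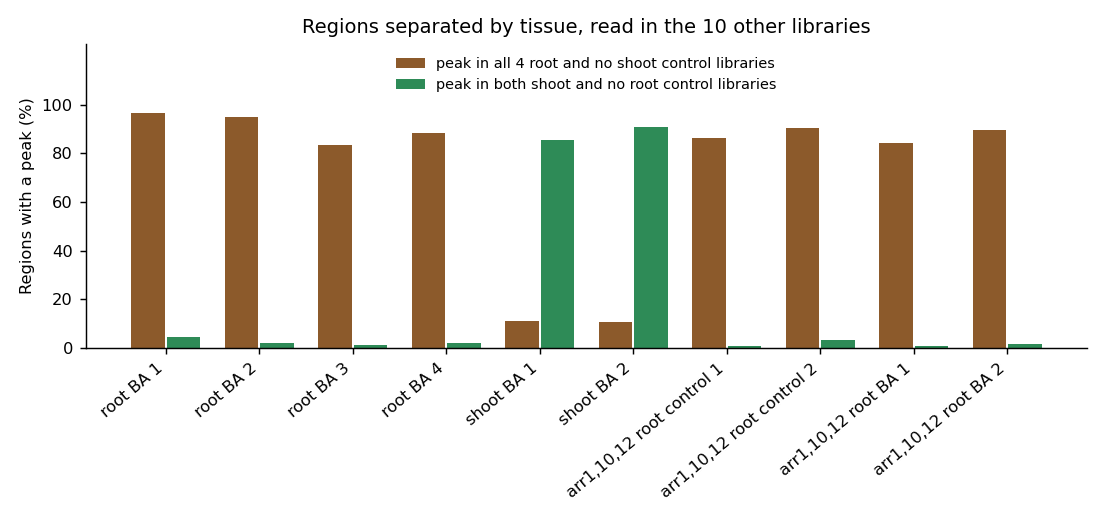
Percent of root-only regions (brown, 2981 regions) and shoot-only regions (green, 1332 regions) with a peak in each of the 10 ATAC libraries outside the comparison. Bars for root-only regions are at 83.4% or more in all 8 root libraries and at 11.2% or less in both shoot libraries, and the order is opposite for shoot-only regions.

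The widest root-only peaks lay mostly between genes. Of the 10 root-only regions with the widest peaks, 5 were centred over 1 kb away from every protein-coding gene, 4 lay in a gene body and 1 within 1 kb. The region at chr4:10182059-10186327 (TAIR10), over RABA1e, a Rab GTPase gene of membrane traffic, was 90.4%, 90.7%, 80.9% and 87.1% covered in the root libraries and without a peak in shoots. The region at chr1:29064192-29068388, 1.65 kb from AT1G77330, was 92.2% to 98.9% covered in roots. Others were nearest to the aquaporin gene PIP2;4 (chr5:24376872-24379899, 84.0% to 98.5%), the transcription factor gene MYB68 (chr5:26319933-26323066, 71.7% to 99.9%) and bZIP5 (chr3:18453504-18456559, 91.6% to 98.1%). Each had 0% in both shoot libraries.

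Of the 10 shoot-only regions with the widest peaks, 9 lay in a gene body. The widest was 7504 bp long, at chr1:21750392-21757895 over AT1G58602, and was 100% and 89.5% covered in the shoot libraries. A second lay over WRR4, an immune receptor gene for white rust resistance (chr1:21171288-21175336), with 95.3% and 90.5%. Another covered LTP, a lipid transfer protein gene (chr2:6518116-6522173), with 100% and 93.8%, and a neighbouring one the receptor-like protein gene RLP19 (chr2:6532977-6537404), with 97.2% and 94.2%. No root library had a peak in any of these.

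Covered percent was next compared by limma, adjusted by Benjamini-Hochberg over all features with a threshold of 0.05. Of the 24317 gene windows, 5774 (23.7%) were more covered in roots and 1245 (5.12%) in shoots. The median window was 5.10 percentage points more covered in roots, since root libraries covered 30.5% to 35.2% of the tested windows on average and shoot libraries 27.9% and 23.3%. After subtraction of each library's mean the median became -1.80 points and the split turned: 2947 windows (12.1%) were higher in roots and 3367 (13.8%) in shoots. The share of root-higher calls among all calls thus fell from 82.3% to 46.7%. Subtraction moved the root minus shoot difference of every window by the same amount toward shoots. Shoot-higher windows thus moved farther from 0, and their calls were nearly bound to stay. Root-higher windows moved the other way, and any difference smaller than the shift was bound to turn. Of the calls before subtraction, 2921 root-higher and all 1245 shoot-higher windows were called the same way after it. Counts before and after subtraction are given for each gene group. Among regions, 7823 (25.6%) were more covered in roots and 2459 (8.06%) in shoots, against 4487 (14.7%) and 5301 (17.4%) after subtraction. Without root control 1, the root library that stood apart in position, 5458 gene windows were higher in roots and 1228 in shoots. Without shoot control 2, the library with the shortest peaks, 2372 gene windows were higher in roots and 1204 in shoots. Without shoot control 1 the counts were 3565 and 780.

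The calls recurred in libraries outside the fit. When WT roots and shoots with BA were compared in the same way (20.7% of windows root-higher and 7.78% shoot-higher), 67.0% of the 5774 root-higher genes and 83.7% of the 1245 shoot-higher genes were called in the same direction and 0 in the other. The direction itself recurred for 99.0% and 99.3%, while 65.1% of all tested windows leaned to roots and 34.5% to shoots with BA.

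Windows without any peak in one tissue formed a small set. A peak in the window in all 4 root and no shoot library was found for 1092 genes, and in both shoot and no root library for 247. At least 50% of the window was covered on average for 81 of the former and 19 of the latter. Among the 81 were UPB1, a bHLH regulator of root growth (70.2% to 83.8% in roots), the peptide gene RGF7 (67.8% to 87.0%) and ZFP5, a zinc finger gene of root hair formation (74.3% to 90.7%). Among the 19 were KCS8, an enzyme gene of very-long-chain fatty acid synthesis (66.4% and 64.5% in shoots), LTP5, a lipid transfer protein gene (67.0% and 69.1%), and PKS4, a phytochrome kinase substrate gene of phototropism (55.3% and 45.2%). These 6 were picked as examples after their values were seen.

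The root gene with the widest difference was EXT3, which encodes an extensin of the cell wall. Its window was 100% covered in every root library and 7.33% and 1.86% in the shoot libraries, a difference of 95.4 points (SE 2.5, limma adjusted p = 0.000105). UPI, a protease inhibitor gene, had 100%, 95.8%, 100% and 79.1% in roots and no peak in shoots. GIK, an AT-hook DNA-binding protein gene, was 92.5%, 92.6%, 92.9% and 91.3% covered in roots and without a peak in shoots. AHL19, another AT-hook gene, was 87.7% to 100% covered in roots and 0% and 5.40% in shoots. OSM34, an osmotin-like gene, had 79.1% to 94.5% against none. The other 7 of the 12 leading root genes were AT1G21313, which neighbours EXT3, AT5G43570, AT3G21710, AT3G16432, AT2G02680, AT2G44380 and AT3G23180. The 12 were chosen for a difference without overlap between the tissues. Their calls were kept without any 1 library.

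The shoot gene with the widest difference was AT2G10940, with no peak in any root library and 97.6% and 90.8% covered in shoots (94.2 points, SE 2.7, limma adjusted p = 0.000110). LTP, with no root peak, was 88.3% and 84.9% covered. Next came 2 genes of the small subunit of Rubisco, the enzyme that fixes carbon dioxide. RBCS2B had 98.8% and 72.0% and RBCS3B 87.3% and 73.6%, again without a root peak. Several others encode cell wall proteins. ELP, an extensin-like gene, had 83.9% and 74.7% against none. CWLP, a cell wall linker protein gene, had 97.8% and 93.5% against 13.7% to 22.7% in roots. XTH16, a xyloglucan endotransglucosylase gene, had 97.4% and 73.5% against 0% to 19.5%. SAUR63, an auxin-inducible growth gene, had 82.3% and 63.5% against none, and its neighbours AT1G29430 and AT1G29435 were also among the 12. ECS1 and RLP19 completed them. These 12 were likewise chosen for a difference without overlap. The RBCS genes of this cluster are near-identical copies, and how reads with several matches were mapped is not given in the sources used here, so their values are uncertain one by one.

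**Figure D4:**
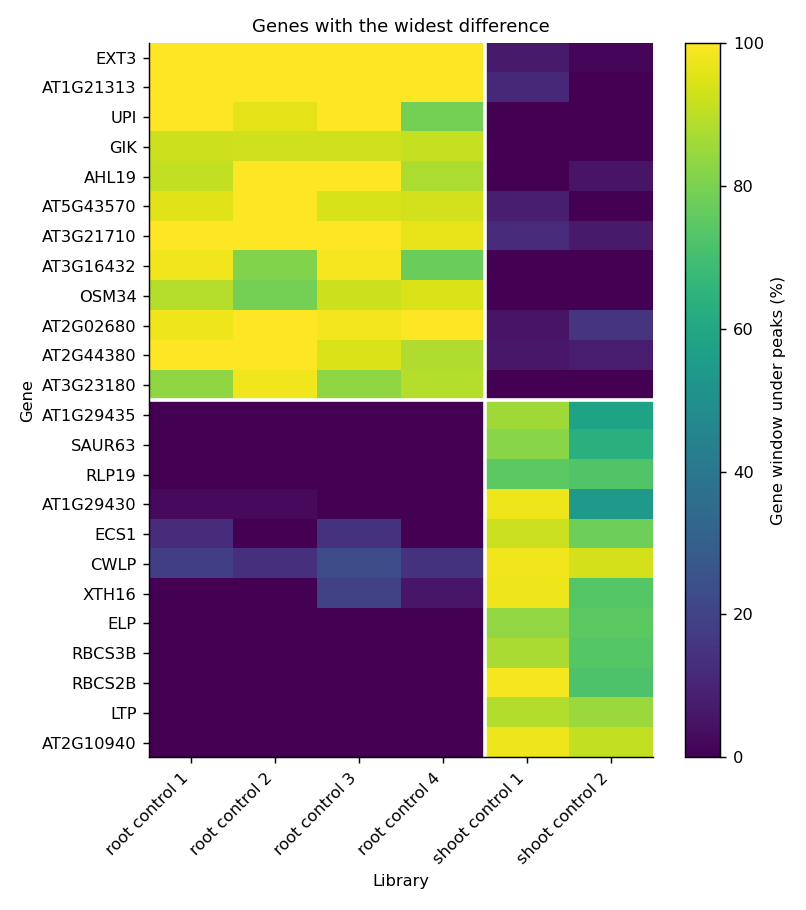
Percent of the gene window under peaks in each library (colour, 0 to 100) for the 12 genes per direction with the widest difference among those called. Root-higher genes (top) are at 77.6% or more in all root libraries and at 15.6% or less in both shoot libraries, and shoot-higher genes (bottom) are at 22.7% or less in roots and at 53.7% or more in shoots.

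Genes were then grouped in 16 lists, of which 307 of 324 genes could be tested. Lists are described by counts and medians beside those of all tested windows (23.7% higher in roots, 5.12% in shoots, median 5.10 points). Counts after subtraction are to be read beside 12.1% of all tested windows in roots, 13.8% in shoots and a median of -1.80 points. List counts on removal of a shoot library are to be read beside those of all tested windows, given above. The root-higher count of all tested windows also fell on removal of either shoot library. No list was tested as a whole. Shares of shoot-higher genes were 34.1% for photosystems and light harvesting, 35.3% for greening, 38.5% for cuticle and trichome and 50% for carbon fixation. They were 23.1% for shoot meristem and leaf patterning and 25% for stomatal genes. Shares of root-higher genes were 36.8% for root meristem, cap and lateral roots, 50% for endodermis and 61.3% for nutrient uptake. They were 64.7% for root hairs and 70% for triterpenes and ER bodies. The seed and flower list had 18.2% in each direction, and the circadian clock list 5.88% root-higher and 0% shoot-higher. The root-higher shares of the light signalling (29.4%), cytokinin (27.3%) and broadly used genes (25%) lay near that of all windows.

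Chloroplast genes leaned to shoots. Of 41 genes of the photosystems and light harvesting, 14 were more covered in shoots and 1 in roots, with a median difference of -10.1 points. After subtraction the counts were 27 and 0. LHCB2.1, which encodes a protein of the light-harvesting antenna, was 85.0% and 62.9% covered in shoots and 5.73% to 8.97% in roots. Its neighbour in the family LHCB2.2 had 45.7% and 38.5% against 0% to 12.3%, and LHCB1.3 had 68.3% and 35.8% against 6.19% to 14.0%. PSAL, a subunit gene of photosystem I, had 76.4% and 67.2% against 29.7% to 41.0%. Other genes were open in both tissues. The plastocyanin gene PETE2 was 55.3% to 63.4% covered in roots and 66.5% and 54.0% in shoots (limma adjusted p = 0.743), and PSAD1 59.5% to 74.9% against 63.9% and 65.8% (adjusted p = 0.834). The 1 root-higher gene, LHCB4.1, was 78.1% to 82.1% covered in roots and 72.0% and 59.3% in shoots, and its call was lost after subtraction and without any 1 library other than shoot control 1. The LHCB1 genes LHCB1.1 to LHCB1.3 are near-identical copies and uncertain for the reason given for the RBCS genes. Whether this limit also holds for LHCB2.1 and LHCB2.2 was not tested.

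Of 24 genes of carbon fixation and photorespiration, 12 were higher in shoots and 2 in roots (16 and 0 after subtraction), with a median of -8.18 points. RBCS1B, like the other 2 genes of its cluster, had no root peak and 77.4% and 51.6% in shoots. CA1, a carbonic anhydrase gene, was 48.4% and 53.8% covered in shoots and 26.5% to 29.96% in roots. RBCS1A, which lies elsewhere in the genome, was 71.5% to 82.5% covered in roots and 95.6% and 84.1% in shoots, and missed the threshold (limma adjusted p = 0.0588). The root-higher calls, CFBP1 and SHM1, were both lost after subtraction, where the difference of SHM1 turned to -0.135 points. SHM1 had no shoot peak and a root mean of 6.77%, less than the shift of every window, so its call could not stay. The call for CFBP1 was also lost without any 1 root library.

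Of 17 genes of chlorophyll synthesis and greening, 6 were higher in shoots and 1 in roots (9 and 1 after subtraction), with a median of -2.75 points. The 6 were the regulators GLK1, GLK2, GATA21 and GATA22 and the enzyme genes PORA and CAO. GLK1, which activates nuclear photosynthesis genes, had 65.1% and 50.8% in shoots and 12.2%, 0.179%, 0.359% and 5.86% in roots. GATA21, a greening factor that cytokinin induces, had 48.2% and 36.5% against 7.23% to 16.8%, and its paralogue GATA22 26.1% and 20.9% against 8.33% to 11.3%. GLK2 had 54.0% and 49.4% against 21.7% to 36.0%, a call lost on removal of either shoot library. Among the enzyme genes, CAO, which makes chlorophyll b, was higher in shoots (32.3% and 18.9% against 10.2% to 12.2%), a call lost without any 1 root library. The magnesium chelatase gene CHLH was 14.4% to 16.6% covered in roots and 17.7% and 19.0% in shoots (limma adjusted p = 0.174). SIG5, a plastid sigma factor gene, was the root-higher gene, at 30.6% to 35.8% against 19.1% and 9.86%.

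Of 26 tested genes of the shoot meristem and leaf patterning, 6 were higher in shoots and 0 in roots (10 and 0 after subtraction), with a median of -1.13 points. They were the leaf-shape factors TCP2 and TCP10, the factors of the lower leaf side FIL, YAB3 and YAB5, and AS2, a factor of leaf polarity. TCP10 had 72.8% and 55.5% in shoots against 26.1% to 33.0% in roots. FIL had 34.0% and 44.1% against 10.9% to 15.4%. YAB5 had 21.9% and 12.8% and no root peak. The call for YAB3 was lost without root control 1, 2 or 4 or shoot control 1, and that for TCP2 without shoot control 1. Other members were more covered in roots without a call. Every root library lay above both shoot libraries for 8 members and both shoot libraries lay above every root library for 7, against 44.7% and 8.57% of all tested windows. The 8 had no call, and among them were KNAT1, a homeobox gene of the meristem (8.33%, 15.3%, 26.4% and 24.5% in roots, 3.66% in both shoot libraries, limma adjusted p = 0.0865), its relative KNAT6 (48.0% to 55.1% against 40.6% and 30.2%, adjusted p = 0.0525) and the boundary gene CUC2 (4.82% to 19.1% against none, adjusted p = 0.110). CUC1 and the stem cell peptide gene CLV3 were also among the 8. A root-only region lay in the windows of 5 members and a shoot-only region in those of 6. Over all kept regions 2981 were root-only and 1332 shoot-only. The share of all tested windows that hold such regions is not given here. The stem cell gene WUS was little covered in either tissue (5.07% to 7.66% in roots, 9.16% and 6.37% in shoots), and STM was not tested, as fewer than 2 libraries had a peak in its window.

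Genes of the shoot epidermis came next. In the list of stomatal and guard cell genes, 3 of 12 tested genes were higher in shoots and 2 in roots (5 and 0 after subtraction). The median was 0.816 points and turned to -6.09 after subtraction. EPFL9, the peptide that promotes stomata, had 46.9% and 35.0% in shoots and no root peak, and SPCH, the factor that starts the lineage, 23.4% and 25.7% against 7.68% to 8.66%. The potassium channel gene KAT1 had 23.8% and 17.7% against 13.3% to 14.2%, and lost its call without any 1 library other than shoot control 2. EPF1 and SDD1, which limit stomatal number, were called higher in roots (18.3% to 28.3% against 8.03% and 9.72%, and 13.3% to 16.8% against 10.3% and 6.96%). Both calls were lost after subtraction, which turned SDD1 to -0.791 points, and on removal of either shoot library. SDD1 also lost its call without root control 2, 3 or 4. Of 13 tested cuticle and trichome genes, 5 were higher in shoots and 0 in roots (9 and 0 after subtraction), with a median of -5.46 points. CER6, which elongates fatty acids for wax, had 71.5% and 54.0% and no root peak, and so had MYB94, a wax regulator (62.5% and 45.1%). Its relative MYB96 had 67.5% and 74.2% against 19.8% to 28.3%. CER3, another wax gene, had 26.4% and 20.7% in shoots and a root peak in root control 1 alone (5.12%).

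**Figure D5:**
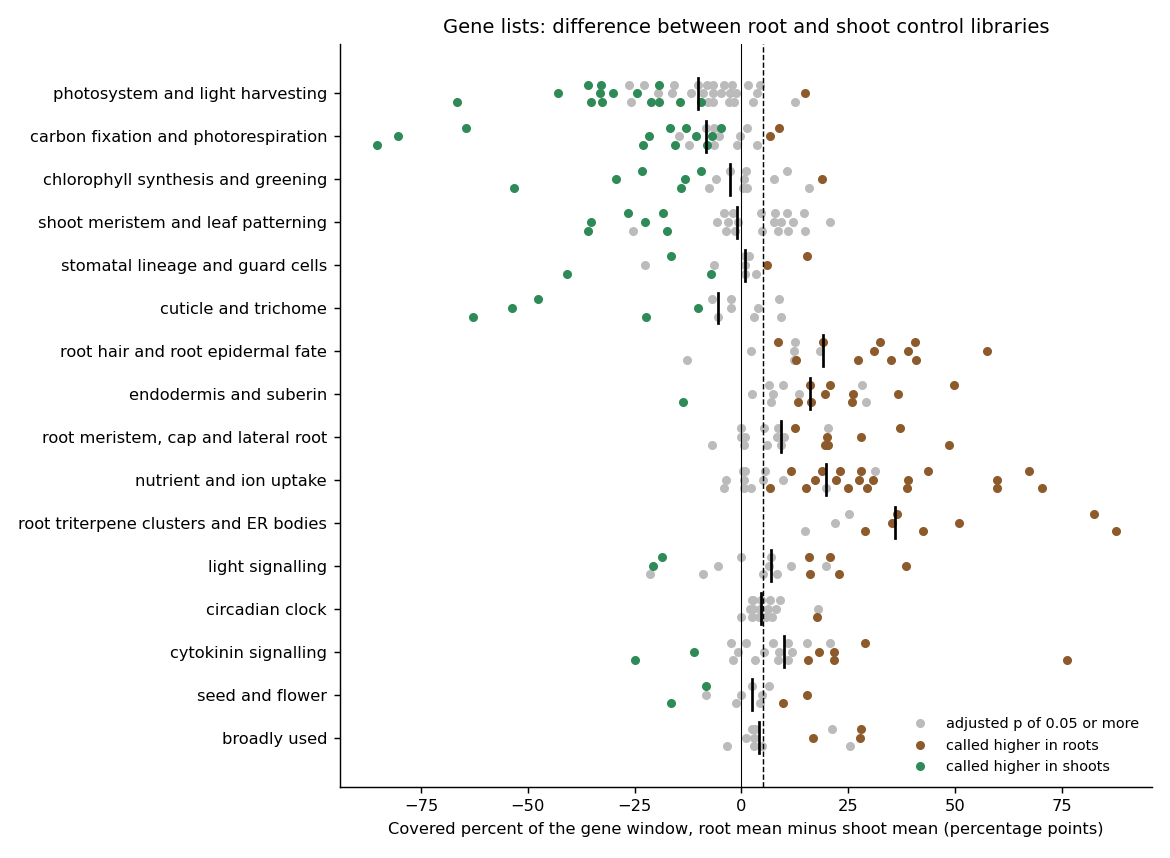
Root mean minus shoot mean of the covered percent of the gene window (percentage points) for the tested genes of each of 16 lists, with brown and green points for genes called higher in roots and in shoots at an adjusted p under 0.05, black ticks for list medians and a dashed line for the median of all tested genes (5.10). The chloroplast lists lie mostly to the left of 0 and the root hair, nutrient uptake and triterpene lists mostly to the right of the dashed line.

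Root hair genes were the first of the root groups. Of 17 tested genes of root hair and root epidermal fate, 11 were higher in roots and 0 in shoots (9 and 0 after subtraction), with a median of 19.1 points. RHD6 and RSL4, the factors that start hair growth, had 38.2% to 42.6% and 53.5% to 60.2% in roots and no peak in either shoot library. EXP18, an expansin gene of hair cells, had 59.4%, 38.0%, 36.6% and 28.4% against none, a call lost on removal of either shoot library. CPC, a mobile factor of hair fate, was open in both tissues, at 74.9% to 91.5% in roots and 40.2% and 50.9% in shoots, and lost its call without shoot control 1. WER, which specifies non-hair cells, had 2.51% to 27.2% against none and missed the threshold (limma adjusted p = 0.239). Without shoot control 1 the list had 6 root-higher genes and without shoot control 2 it had 5.

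Of 18 tested endodermis and suberin genes, 9 were higher in roots and 1 in shoots (5 and 1 after subtraction), with a median of 16.1 points. SGN1, a kinase gene of the Casparian strip pathway, had 66.6% to 72.3% against 29.3% and 10.9%. CASP1, a gene for a scaffold protein of the strip, had 62.9%, 71.1%, 42.2% and 71.4% against 30.7% and 19.8%, a call kept only without root control 3. ABCG2, a transporter gene of suberin formation, had 43.1% to 48.3% against 19.7% and 19.4%. PER64, a peroxidase gene of the strip, went the other way, with 8.42% to 14.2% in roots and 29.0% and 19.4% in shoots, a call lost without root control 2, 3 or 4 or shoot control 1. The list had 6 root-higher genes without shoot control 1 and 4 without shoot control 2.

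Of 19 tested genes of the root meristem, cap and lateral roots, 7 were higher in roots and 0 in shoots (6 and 1 after subtraction), with a median of 9.26 points. PIN2, an auxin efflux carrier gene of root tips, had 59.8%, 69.3%, 61.3% and 60.8% against 10.6% and 17.6%. The lateral root factors LBD29 and LBD16 had 36.2% to 40.1% against 3.63% and 0%, and 25.3% to 29.0% against 6.47% and 8.13%. AUX1, the auxin influx carrier gene, had 68.7% to 78.2% against 53.1% and 38.3%, a call lost without shoot control 2. The meristem gene PLT2 and the root cap gene SMB had 15.3% to 23.1% and 10.2% to 14.3% in roots and no shoot peak. PLT1, BBM, BRN2, RGF1, RGF2, RGF3 and PUCHI had a peak in the window in fewer than 2 libraries and were not tested.

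Nutrient uptake genes gave the longest set of root-higher calls among the lists. Of 31 genes, 19 were higher in roots and 0 in shoots (14 and 0 after subtraction), with a median of 19.8 points. AMT1;3, an ammonium transporter gene, had 89.9%, 61.8%, 61.0% and 69.2% against none, while AMT1;1, another ammonium transporter gene, was open in both tissues (85.4% to 92.6% against 100% and 84.5%, limma adjusted p = 0.521). BHLH39, a regulator of iron uptake, had 54.1% to 63.4% against none, and IRT1, the iron transporter gene, 24.1% to 44.9% against 8.20% and 5.45%. NIP5;1, the boric acid channel gene, had 76.0% to 85.3% against 28.0% and 17.4%. PHT1;1, a phosphate transporter gene, had 50.2% to 87.3% against none, a call lost on removal of either shoot library, as was that of IRT1. PHT1;1 to PHT1;3 are close copies and uncertain for the reason given for the RBCS genes. The nitrate transporter gene NRT1.1 was 33.4% to 70.6% covered in roots and 61.7% and 44.4% in shoots (adjusted p = 0.98). Without shoot control 1 the list had 11 root-higher genes and without shoot control 2 it had 10.

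The median difference was highest, at 35.9 points, among 10 genes of root triterpene clusters and of ER bodies, which are defence organelles filled with a beta-glucosidase. Of these 10, 7 were higher in roots and 0 in shoots, before and after subtraction. PYK10, which encodes that glucosidase, had 99.4%, 100%, 99.8% and 92.6% in roots against 6.15% and 14.5%. PBP1, its binding protein gene, had 99.8%, 96.9%, 100% and 87.0% against 15.04% and 11.5%, and NAI2, which forms the bodies, 45.7% to 65.2% against 15.6% and 12.6%. CYP705A12, of the marneral cluster, had 54.5% to 71.7% against 12.3% and 8.94%. THAS1, MRN1 and THAD, which make or modify triterpenes, had no shoot peak but spread widely among root libraries, as for THAS1 with 42.5%, 17.7%, 13.4% and 14.6% (adjusted p = 0.11). Without shoot control 2 there were 4 root-higher genes, NAI2 no longer among them, and without shoot control 1 there were 5.

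Lists with no single home tissue gave mixed counts. Of 17 light signalling genes, 5 were higher in roots and 2 in shoots (3 and 4 after subtraction), with a median of 6.91 points. COP1, a repressor of light responses, had 28.6% to 33.7% in roots against 11.3% and 10.6%, and ELIP1, a light stress gene, 83.8% to 92.1% against 66.8% and 66.6%. The factors PIF5 and PIF7 were higher in shoots, PIF5 with 97.6% and 99.0% against 78.6% to 81.2% and PIF7 with 36.3% and 32.4% against 9.05% to 18.3%. The calls for BBX21 and BBX22 were lost on removal of either shoot library and that for BBX22 also after subtraction. BBX21 also lost its call without root control 1, 2 or 3, and BBX22 without root control 2, 3 or 4. PIF7 and the root-higher photoreceptor gene PHYB lost theirs on removal of either shoot library, and PHYB also after subtraction. The list had 2 root-higher genes without shoot control 2, and 3 without shoot control 1, root control 2 or root control 3. Of 17 circadian clock genes, 1 was higher in roots, ELF4 (53.8% to 65.8% against 45.3% and 41.2%), and 0 in shoots. That call was lost on removal of any 1 library other than root control 4. After subtraction there was no call and the median turned from 4.59 to -2.32 points. RVE8 was the steadiest, at 27.5% to 27.8% in roots and 27.7% and 27.6% in shoots.

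Cytokinin signalling genes, whose level without added hormone sets the base of the treated samples, gave 6 root-higher and 2 shoot-higher calls among 22 (4 and 2 after subtraction), with a median of 9.96 points. AHP1, a phosphotransfer protein gene, had 80.3%, 83.0%, 82.1% and 79.7% in roots and 4.904% in both shoot libraries. Of the type-A response regulators, which are early cytokinin-induced genes, ARR3 had 37.1% to 43.7% against 12.9% and 11.9% and ARR5 88.6% to 97.8% against 72.3% and 69.7%. ARR7 was higher in shoots, with 70.6% and 51.0% against 31.7% to 38.7%, and so was ARR16, with 15.4% and 13.4% against 7.27%, 6.03%, 0% and 0%. Both calls were lost without root control 3 or 4 or shoot control 1, among other libraries. With BA, ARR16 was 25.03% covered in roots and 23.5% in shoots on average. Of 92 named list and leading genes with a call, it was the 1 whose direction did not recur there. Direction alone was counted. ARR5, at 98.4% in roots and 96.8% in shoots, and the light signalling gene BBX22, at 44.1% and 43.1%, were nearly level with BA. The type-B factor ARR10 had 38.6% to 48.6% in roots against 20.1% and 20.7%, a call lost on removal of either shoot library. The receptor gene AHK4 had 32.2% to 44.2% against 31.0% and 18.5% (limma adjusted p = 0.0775). Without shoot control 2 the list had 3 root-higher genes.

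The control lists set the scale. Of 12 broadly used genes, 3 were higher in roots and 0 in shoots (2 and 0 after subtraction), with a median of 4.04 points that turned to -2.86 after subtraction. UBQ10 was 93.1% to 100% covered in every library, while UBQ5, GAPC1 and GAPC2 were higher in roots by 28.0, 27.7 and 16.9 points. GAPC1 lost its call on removal of either shoot library, UBQ5 also without root control 1, 2 or 3, and GAPC2 after subtraction. The list had 1 root-higher gene without shoot control 2. Of 11 tested seed and flower genes, whose products belong to neither tissue, 2 were higher in roots (SESA4 and OLEO1) and 2 in shoots (SESA1 and SEP3), against 0 and 4 after subtraction, with a median of 2.40 points that turned to -4.50. The root-higher calls were both lost without root control 2 or 3 or shoot control 2, OLEO1 also without root control 1 or 4 and SESA4 without shoot control 1. SESA1 lost its call without shoot control 2. The flower gene SEP3 had 4.36% in every root library and 14.8% and 10.5% in shoots. The shoot-higher share of the seed and flower list was 18.2%, against 5.12% of all tested windows and 23.1% of the shoot meristem list. Its root-higher share was also 18.2%, against 23.7% of all tested windows. After subtraction 4 of the 11 were shoot-higher, against 13.8% of all tested windows.

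The labelled tissues were checked against the 6 shoot and 5 root lists. The cuticle and trichome list and the triterpene and ER body list were not among those first set for this check. They gave 5 shoot-higher and 7 root-higher calls, respectively, and 0 in the other direction. Of 133 tested genes of the shoot lists, 46 were higher in shoots and 6 in roots, and of 95 tested genes of the root lists 53 were higher in roots and 1, PER64, in shoots. A peak in both shoot and no root library was found for 9 genes of the shoot lists (6.77%, against 1.02% of all tested windows), among them RBCS1B, EPFL9 and CER6. The opposite, a peak in all 4 root and no shoot library, was found for 2 of them, SHM1 (5.67% to 7.32% in roots) and CUC2. In the root lists that pattern was found for 23 genes (24.2%, against 4.49% of all tested windows), among them RHD6, PLT2 and AMT1;3, and a peak in both shoot and no root library for 0.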

How the data were processed

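The deposited files used were peak lists, 1 per ATAC-seq library, that hold chromosome, start and end for the 5 nuclear chromosomes; the authors' values are positions and carry no score, coverage or read number. The build was TAIR10, and the tools named are HOMER 4.9.2, deepTools 2.5.2, SAMtools 1.5 and Bowtie 1.2.0, per the submitters' processing notes. What each tool did, the peak threshold and the handling of reads with several matches are not given in the sources used here. The width and number of called peaks can depend on depth, which is unknown, and its part in the lower cover of the shoot libraries was not tested.

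From these positions, overlapping peaks of the 6 libraries were merged into regions, and those found in 2 or more libraries were kept. Covered percent was computed per region and per window of a protein-coding gene (body with 1 kb on both sides, no strand). Gene names and positions came from a RefSeq table of the assembly TAIR10.1, whose gene flanks were set against the peaks in each of 62 bins 2 Mb long. In 61 of them the best offset was within 100 bp (largest 150 bp), and coordinates are printed from the deposited files alone. All 324 list genes were found in the table by locus.

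Covered percent was fitted with limma 3.58.1 (R 4.3.3, eBayes with a variance trend), root against shoot, without covariates, with Benjamini-Hochberg adjustment over all features and a threshold of 0.05. Presence per region was tested by Fisher's exact test, and library values and the Jaccard index by exact permutation over all 15 splits (two-sided by absolute difference, and one-sided for the index). Distances and classes of position use the midpoint of a region.

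Genes were named by a rule: the 12 per direction with the widest difference among those called and without overlap, and up to 4 called members per direction of each list. A gene that this rule names is not reported here. Regions were the 10 separated ones per direction with the widest mean peak, named by the gene over or nearest the midpoint. Further genes are named to show members that missed the threshold or were open in both tissues, and were chosen after their values were seen. The samples, lists and rules were chosen with earlier results of these data known. Alternatives were subtraction of each library's mean, other flanks, peaks of at least 300 bp, other merging, no filter, an arcsine scale, no trend, a replicate block and leaving out each library. The 12 RNA-seq samples and the authors' lists of differential regions had no part in the fits. The 6 WT libraries with BA were fitted apart, in the same way, and the 4 arr1,10,12 libraries were read for peaks alone. The RNA-seq samples were not analysed here.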

Additional observations from a re-analysis of the deposited data

Results flagged for a closer look

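A root library was marked where its gap to the nearest of the other 3, divided by the range of the 4, passed Dixon's 95% critical value of 0.83. This mark falls on about 1 in 20 groups by chance, and 13 of 114 groups of 4 root libraries were marked. Causes were not tested.

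Root control 1 was marked in 3 library values. It had 36358 peaks against 32380 to 32953 in the others, 47.1% of peaks in gene bodies against 38.9% to 39.4%, and 37.7% within 1 kb of a gene against 44.8% to 45.3%. It was also marked in 3 gene windows. It had the only root peak at CER3, with 5.12% of the window covered. It was low at LBD29, with 36.2% against 39.5% to 40.1%, and at NIP5;1, with 76.0% against 84.1% to 85.3%.

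Root control 3 was marked in 4 windows. It was high at YAB3 (23.5% against 11.2% to 11.7%), at SESA1 (20.8% against 13.9% to 14.8%) and at KAT1 (14.2% against 13.3% to 13.4%), and low at ELIP1 (83.8% against 90.7% to 92.1%). Root control 4 was low at PYK10, with 92.6% against 99.4% to 100%, and at AT3G21710, with 96.7% against 100% in the others. Root control 2 was high at PIN2, with 69.3% against 59.8% to 61.3%. In each of these windows the marked library stayed on the root side of both shoot libraries.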

How the results depend on the processing

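Directions of the named genes were mostly kept. Over all alternatives 1169 values of single genes kept direction and call and 205 kept the direction alone. After subtraction of library means 2 turned, SHM1 (-0.135 points) and SDD1 (-0.791). Both had a difference smaller than the shift of every window, so they were bound to turn. Of 92 named genes with a call, 64 kept it without any 1 library, 82 after subtraction and 49 with the replicate block described below. On the gene body alone 57 kept it, 31 lost it and the rest had no value. The shoot-higher calls among the 82 were nearly bound to stay, as subtraction moves them away from 0. Gene counts, 5774 and 1245 in the report, were 2947 and 3367 after subtraction, 1993 and 686 on the gene body alone, and 2372 to 5458 and 780 to 1228 without 1 library. Region counts, 7823 and 2459, were 4487 and 5301 after subtraction, and 3870 to 7483 and 1634 to 2426 without 1 library. Root-only regions numbered 4766 when a peak had to cover 50% of the region, 4694 with root libraries 1 and 2 alone and 3163 to 3953 without 1 library. Shoot-only regions could not be counted with 1 shoot library.

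Shares of peaks by position changed direction between alternatives. Root minus shoot was -0.503 points for gene bodies with peaks of at least 300 bp, and without 1 library -3.01 to 3.29 for gene bodies, -2.73 to 2.92 within 1 kb of a gene and -0.562 to 0.0861 elsewhere.

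Replicate numbers 1 and 2 occur in both tissues. Library 1 had the highest share of peaks in gene bodies in both, at 47.1% in roots and 44.1% in shoots. Deviations of same-numbered libraries correlated at 0.157 and 0.1197, and with 2 pairs this does not pair the samples. With the replicate block, fitted on libraries 1 and 2 of both tissues, 1983 genes were higher in roots and 280 in shoots, and 0 regions in either direction by limma (12321 with an unadjusted p under 0.05). The absence of read numbers limits all results to peak positions.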

Other observations

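Some calls lay side by side along the chromosomes. Windows of neighbours often overlap, and the part of this in the runs was not tested. The runs, families and genes of this section were picked after their values were seen and are descriptions. The longest run of neighbouring root-higher genes had 13 members on chromosome 3, from PAB6 to IQD26. It holds NSP1, NSP3 and NSP4, which encode nitrile specifier proteins of glucosinolate breakdown, and the jacalin-related lectin genes PBP1, JAL31, JAL33 and JAL34. Their windows were 69.7% covered in roots and 19.7% in shoots on average. A run of 11 genes lay around PYK10 (57.3% against 14.9%), and another of 11 from AT2G02610 to AT2G02700 (43.3% against 5.84%). Some runs of shoot-higher genes held several members of a family. On chromosome 2, 7 genes from SWC2 to DOGT1, among them the glucosyltransferase genes UGT73C1, UGT73C2 and UGT73C6, were 33.4% covered in shoots and 2.96% in roots. The auxin-responsive genes SAUR26 to SAUR29 lay in a run of 7 (39.9% against 11.2%), and SAUR63 in a run of 5 (68.4% against 4.28%). The 4 genes from AT5G38400 to RBCS1B were 69.3% covered in shoots and had no root peak.

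Among families of at least 15 tested genes that share a symbol stem, WRKY factors, many of which act in defence, had 29 of 61 windows higher in roots (47.5%) and 3 higher in shoots, 20 and 7 after subtraction. Protein kinases of the CIPK family, which act on ion transport, had 11 of 21 higher in roots and 2 in shoots, 7 and 4 after subtraction. Glutathione transferases of the GSTU family had 11 of 25 higher in roots and 0 in shoots, 11 and 2 after subtraction. The KCS family, which elongates very-long-chain fatty acids, had 6 of 19 higher in shoots and 0 in roots, 9 and 0 after subtraction. The SPL factors of shoot phase change had 5 of 16 higher in shoots and 1 in roots, 10 and 1 after subtraction. Of all tested windows, 23.7% were higher in roots and 5.12% in shoots, and 12.1% and 13.8% after subtraction.

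A total of 48 gene windows held both a root-only and a shoot-only region. CKX3, a cytokinin oxidase gene, had a root-only region at chr5:23043945-23044703 and a shoot-only region at chr5:23046378-23046671 (TAIR10), and its window was 14.6% covered in roots and 12.6% in shoots on average. BRX, a regulator of root growth, had a root-only region at chr1:11450148-11450578 and a shoot-only region at chr1:11445984-11446389, with means of 19.9% and 25.7%. JKD, a factor of root tissue patterning, had a root-only region at chr5:745027-745698 and a shoot-only region at chr5:748642-748894, with means of 20.8% and 15.6%.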
